A study of Mus musculus with 12 samples.

Results

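Genes of cholesterol synthesis, transport and control were examined in RNA from a pulldown of tagged ribosomes and in whole-tissue RNA from mouse brain white matter. The group held 33 of the 24060 genes in the count table, chosen by symbol, and split into 18 synthesis enzymes, 7 control genes and 8 genes of export, uptake, transport and storage. All 33 genes were present, and all 33 passed the filter on low counts that left 14354 genes for testing. Libraries came from 6 male Tie2-Cre:Rpl22-HA mice, with animals 489, 555 and 556 on a control-fat diet (CFD), in which fat gave 10% of the kcal, and animals 516, 517 and 676 on a high-fat diet (HFD), in which it gave 60%. All 6 animals carried the same alleles, in which Cre driven by the Tie2 promoter adds a hemagglutinin (HA) tag to Rpl22, a protein of the large ribosomal subunit, in endothelial cells and also in blood-forming cells of the same lineage. An anti-HA pulldown (IP) and an input of the whole white matter sample were sequenced for each animal, giving 12 libraries in 4 groups of 3. The age of these mice was not given in the sources used here.

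Cells make cholesterol from acetyl-CoA through mevalonate, isoprenoid units and squalene, and most enzymes of the chain are switched on together by the transcription factor SREBP-2, the product of Srebf2. SREBP proteins are carried from the endoplasmic reticulum by Scap when sterol is low, and Insig1 and Insig2 hold Scap back when sterol is high. The liver X receptors, made from Nr1h2 and Nr1h3, respond to oxidised sterols and switch on the exporters Abca1 and Abcg1. The brain makes its own cholesterol behind the blood-brain barrier, oligodendrocytes use much of it for myelin, and astrocytes release it on Apoe particles.

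Library totals ranged from 19567186 to 33660708 counts, and a member had a median of 483 counts per library. The ribosomal RNA precursor Rn45s took 38.7% to 42.3% of the counts in CFD IP, 17.1% to 19.1% in HFD IP and 6.34% to 14.2% in the inputs. The pulldown was checked against 12 endothelial markers, whose summed level in CPM (reads relative to the scaled library size) was 3.87 to 213 in CFD IP, 9.84 to 67.1 in HFD IP, 10.6 to 22.1 in CFD input and 11.98 to 43.4 in HFD input, with 1 to 6 of the markers at 0 in a library. Neuronal markers summed to 11976 to 15435 CPM in the IP libraries and oligodendrocyte markers to 2901 to 7191 CPM. In the inputs these sums were 10914 to 16586 CPM and 2918 to 4906 CPM. In IP over input over both diets, 4 of 10 tested endothelial markers were higher and 6 lower. Of 10 neuronal markers 7 were higher and 3 lower, where 48.4% of all genes were higher. The IP libraries are therefore named by their pulldown and not by a cell type. In the HFD input of animal 676 the female transcript Xist reached 133 counts, although the study used male mice. In tissue samples of this kind, fewer cells of a type and less RNA per cell cannot be told apart.

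Promoters of 4 genes (Hmgcs1, Cyp51, Lbr and Srebf2) are shown. The enzymes of this pathway are known to be driven by sterol response elements next to CCAAT boxes. The 4 genes had an unadjusted p under 0.05 by edgeR in the diet comparison of the pulldowns described further on, where no member was called. Sqle and Abca1 also had such a p. Sqle had no promoter entry, and the promoter of Abca1, not shown, held neither a sterol response element match nor a CCAAT box. Each sequence is the 250 bases before the RefSeq start on GRCm38.p6, the assembly also called mm10, written 5′ to 3′ along the gene, with capitals marking the sterol response element TCACNCCAC and the CCAAT box on either strand (CCAAT or ATTGG).
Hmgcs1, chr13:119690101-119690350, plus strand: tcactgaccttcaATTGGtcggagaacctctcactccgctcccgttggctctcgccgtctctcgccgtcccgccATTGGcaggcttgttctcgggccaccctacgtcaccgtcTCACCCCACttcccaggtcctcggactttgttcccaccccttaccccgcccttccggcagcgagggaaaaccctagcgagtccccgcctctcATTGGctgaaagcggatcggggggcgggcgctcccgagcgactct
Cyp51, chr5:4104698-4104947, minus strand: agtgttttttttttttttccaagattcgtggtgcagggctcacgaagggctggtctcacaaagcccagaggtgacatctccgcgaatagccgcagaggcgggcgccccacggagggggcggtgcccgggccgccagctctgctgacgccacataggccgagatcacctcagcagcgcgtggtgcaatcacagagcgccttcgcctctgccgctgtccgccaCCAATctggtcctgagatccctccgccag
Lbr, chr1:181842402-181842651, minus strand: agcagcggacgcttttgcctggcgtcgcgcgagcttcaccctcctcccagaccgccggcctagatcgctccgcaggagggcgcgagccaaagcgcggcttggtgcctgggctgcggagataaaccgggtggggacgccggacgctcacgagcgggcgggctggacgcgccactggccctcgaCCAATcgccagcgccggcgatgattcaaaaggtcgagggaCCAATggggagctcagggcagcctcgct
Srebf2, chr15:82147019-82147268, plus strand: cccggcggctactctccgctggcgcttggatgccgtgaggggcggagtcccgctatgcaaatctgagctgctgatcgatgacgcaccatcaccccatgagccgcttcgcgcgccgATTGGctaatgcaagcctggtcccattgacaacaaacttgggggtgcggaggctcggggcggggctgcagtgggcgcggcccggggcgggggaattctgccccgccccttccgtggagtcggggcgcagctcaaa

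Of the 33 genes, 27 had a promoter entry, and entries for Abcg1, Fdft1, Fdps, Npc1, Sqle and Stard4 were not used here. A CCAAT box lay in 13 of 15 synthesis enzyme promoters and in 6 of 12 promoters of the other members, against 34.5% of 27025 mouse promoters of the same length. The GC box GGGCGG, searched on both strands, lay in 14 of 15 synthesis enzyme promoters, in 5 of 12 of the others and in 32.9% of all promoters. The exact sterol response element was found in 1 member promoter, that of Hmgcs1 at position -137 from the start, and in 1.04% of all promoters. These matches describe letters in a window and were not tested against the expression values.

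The level of each gene was compared per length, as CPM per kilobase. Apoe, the main lipid carrier of the brain, had the highest level in all 4 groups, at 254 ± 65.8 CPM per kilobase in CFD IP, 199 ± 57.5 in HFD IP, 194 ± 32.7 in CFD input and 147 ± 9.37 in HFD input (SD, n = 3 each). In CFD IP the next levels were those of Hmgcs1, the enzyme that builds HMG-CoA, at 44.0 ± 26.2 CPM per kilobase, of Srebf2 at 43.6 ± 20.6 and of the lipoprotein receptor Lrp1 at 32.5 ± 10.3 (SD, n = 3 each). The same 4 genes held the first 4 places in CFD input, with Hmgcs1 at 28.9 ± 4.12 CPM per kilobase, Srebf2 at 22.1 ± 5.71 and Lrp1 at 21.3 ± 5.67 (SD, n = 3 each). The lowest mean level in CFD IP, CFD input and HFD input was that of Nr1h3, which had at most 91 counts in any library. The second sterol reductase gene Tm7sf2 had the lowest mean level in HFD IP, at 0.175 ± 0.205 CPM per kilobase (SD, n = 3). Apoe lay above its next neighbour by more than both SDs in every group, while of the 32 neighbouring pairs in each order no other pair did so in CFD IP, HFD IP or HFD input, and 1 other pair did so in CFD input, Idi1 over Tm7sf2.

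**Figure D1:**
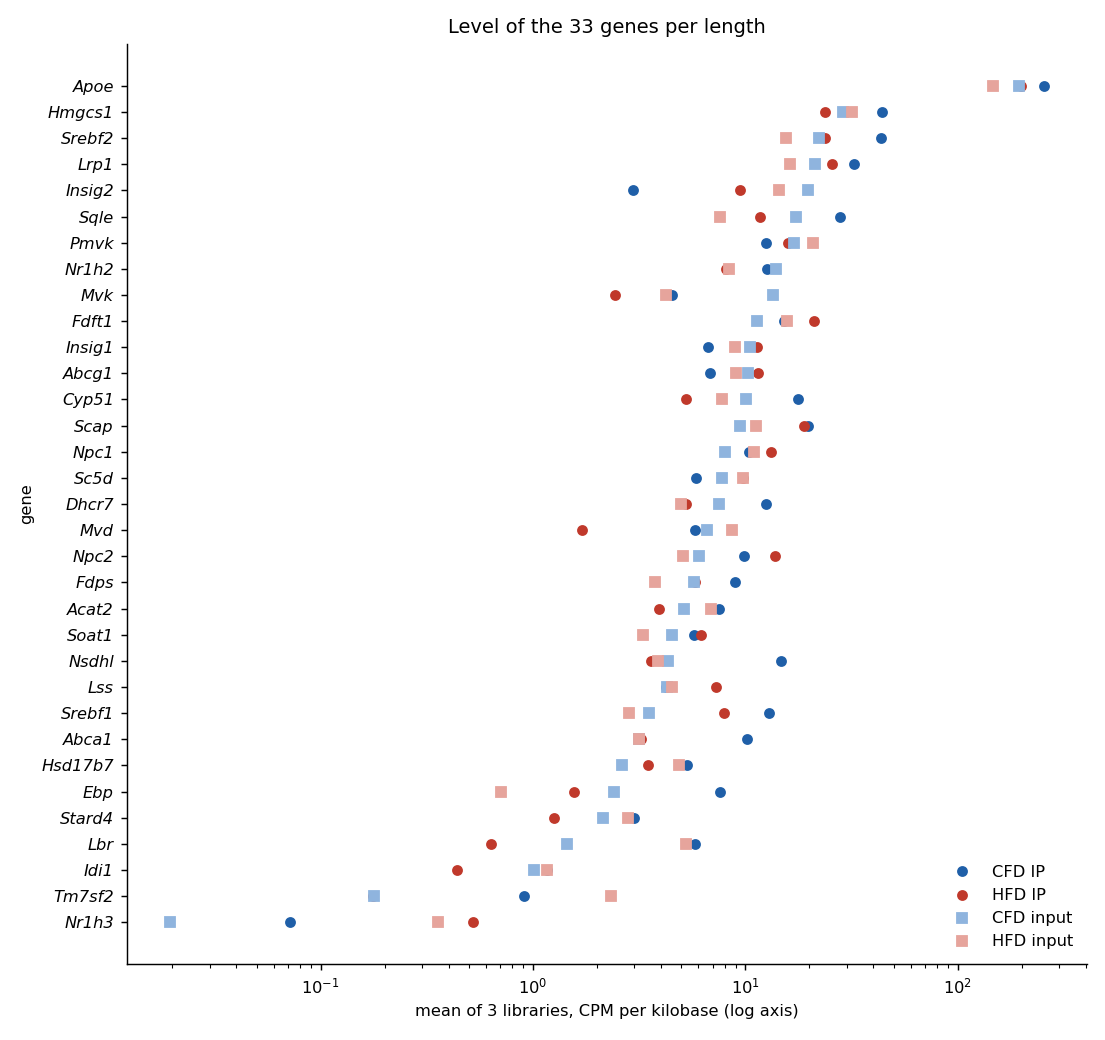
Mean level of each of the 33 genes in CPM per kilobase on a log axis, 1 row per gene, with circles for IP and squares for input and blue for CFD and red for HFD, each the mean of 3 libraries. Apoe stands apart on the right in all 4 groups, and Nr1h3 and Tm7sf2 lie at the low end.

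Libraries of 1 group differed widely. The median coefficient of variation of the 33 genes was 70.6% in CFD IP, 75.6% in HFD IP, 42.0% in CFD input and 38.6% in HFD input, where counting error alone would give about 4.52%, 3.86%, 4.27% and 4.002%. The corresponding medians over all tested genes were 75.6%, 73.2%, 55.1% and 41.7%. In CFD IP, 10 of the 33 genes spanned at least 10-fold between the 3 libraries with at least 100 counts in 1 of them, against 22.7% of all tested genes. In HFD IP 8 of the 33 did so, against 24.6% of all tested genes. Synthesis enzymes, 18 of the 33 genes, supplied 6 of the 10 in CFD IP and 7 of the 8 in HFD IP.

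The first comparison, HFD IP against CFD IP, asks which transcripts in the pulldown differ with diet. Transcripts of the synthesis enzymes were mostly at lower levels in HFD IP, with 14 of 18 fitted log2 fold changes below 0, where 48.3% of all genes were below 0. Their median log2 fold change was -1.09, against -0.06 for the 7 control genes, -0.12 for the 8 transport genes and 0.03 for all genes tested. None of the 33 genes passed an adjusted p under 0.1 in edgeR's quasi-likelihood test, a threshold passed by 0.0557% of all genes. None passed it in DESeq2 either, where 5.36% of all genes did. At an unadjusted p under 0.05 there were 6 members by edgeR (Hmgcs1, Sqle, Cyp51, Lbr, Srebf2 and Abca1), all lower in HFD IP, where 10.9% of all genes had such a p and 4.82% had it with a lower value. Rn45s differed between the same groups, and its part in these values was not tested. With Rn45s and its companion Lars2 left out, 14 of 18 enzymes were again below 0 and their median was -1.12. That fit leaves the counts of the other genes as they were, so it does not test the part of Rn45s either.

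The summed level of the 18 synthesis enzymes was 388, 702 and 622 CPM in CFD IP of animals 489, 555 and 556. In HFD IP it was 322, 341 and 330 CPM in animals 516, 517 and 676. The groups did not overlap in this sum, the HFD libraries lay close together, and the difference came mostly from animals 555 and 556. The mean log2 level of the enzymes (of CPM plus 1), which weights each gene alike, did overlap. It was 3.73, 4.51 and 3.41 in CFD IP and 2.68, 3.34 and 3.51 in HFD IP. The share of the enzymes in the summed CPM of all members also overlapped, at 20.3% to 35.3% in CFD IP and 19.3% to 29.4% in HFD IP. In the inputs the summed level of the enzymes was 369, 388 and 397 CPM on CFD and 421, 372 and 366 CPM on HFD, so that the inputs overlapped. Summed levels of the 7 control genes overlapped between the IP groups, at 219 to 524 CPM in CFD IP and 232 to 383 CPM in HFD IP. The 10 astrocyte markers, none of them at 0 in any library, summed to 4246, 8787 and 10316 CPM in CFD IP and to 8301, 7701 and 4551 CPM in HFD IP, in the same order of animals. Among the CFD IP libraries both the astrocyte and the synthesis sum were lowest in animal 489, but the astrocyte sum was highest in 556 and the synthesis sum in 555. Neuronal and oligodendrocyte progenitor marker sums were also lowest in animal 489, while endothelial, pericyte, microglia, blood and oligodendrocyte marker sums were lowest in animal 555. The 10 microglia markers summed to 124 to 167 CPM in CFD IP and to 197 to 374 CPM in HFD IP. The part of RNA of any cell type in these values was not tested.

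**Figure D2:**
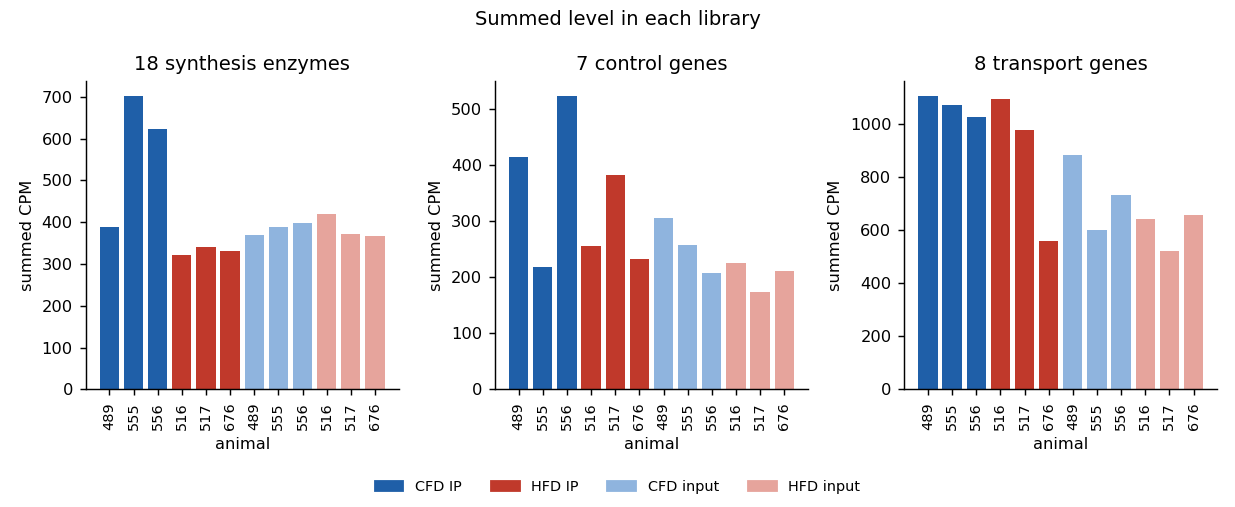
Bars give the summed CPM of the 18 synthesis enzymes, the 7 control genes and the 8 transport genes in each of the 12 libraries, named by animal and coloured by group. The 3 HFD IP bars of the synthesis enzymes, from 322 to 341 CPM, lie below the 3 CFD IP bars, from 388 to 702 CPM, while the input bars overlap. A sum is set mostly by the abundant genes, and the mean log2 level of the 18 enzymes, not drawn, overlapped between the IP groups.

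In the early steps of the chain, Hmgcs1 (mouse chromosome 13, 119690351 to 119708260) was at 94.0, 109 and 261 CPM in CFD IP and at 72.6, 74.4 and 103 CPM in HFD IP. The ranges overlapped, with the highest HFD library above the lowest CFD library, and animal 556 stood highest. The fitted log2 fold change was -0.89 ± 0.41 (SE; edgeR adjusted p = 0.441), and it was -0.28 without animal 556. In input Hmgcs1 was at 94.7, 92.2 and 118 CPM on CFD and at 120.3, 139.8 and 76.9 CPM on HFD, and the groups overlapped. Mvd, the decarboxylase that makes isopentenyl diphosphate (chromosome 8, 122433596 to 122443422), was at 5.79, 13.3 and 11.4 CPM in CFD IP and at 1.60, 5.61 and 1.80 CPM in HFD IP, and the groups did not overlap. Its log2 fold change was -1.76 ± 1.08 (SE; edgeR adjusted p = 0.546). Of the other early enzymes, Acat2, Mvk, Idi1 and Fdps had log2 fold changes from -1.41 to -0.62 and the kinase Pmvk had 0.34, with edgeR adjusted p-values from 0.759 to 0.938.

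Squalene epoxidase, Sqle (chromosome 15, 59315092 to 59331193), the first oxygen-using enzyme of the sterol branch, was at 53.2, 67.5 and 110 CPM in CFD IP and at 24.7, 46.9 and 24.99 CPM in HFD IP. The groups did not overlap. Its log2 fold change was -1.26 ± 0.59 (SE; edgeR adjusted p = 0.449), and -0.90 without animal 556. Sqle and Mvd were the only 2 members below without overlap in this comparison, where 4.66% of all genes were.

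Cyp51, the lanosterol demethylase (chromosome 5, 4080674 to 4104697), was at 17.0, 161 and 54.4 CPM in CFD IP and at 29.8, 10.1 and 28.7 CPM in HFD IP. Animal 489 lay inside the HFD range and animal 555 far above it. The log2 fold change was -1.76 ± 0.69 (SE; edgeR adjusted p = 0.382), and -0.65 without animal 555. In input Cyp51 was at 51.7, 37.5 and 41.5 CPM on CFD and at 35.9, 16.5 and 49.05 CPM on HFD, again with overlap. Lbr, a sterol reductase that also anchors chromatin to the nuclear envelope (chromosome 1, 181815315 to 181842401), was at 0.621, 50.6 and 10.2 CPM in CFD IP and at 0.0694, 3.63 and 3.08 CPM in HFD IP. Its log2 fold change of -3.18 ± 1.46 (SE; edgeR adjusted p = 0.436) was -1.27 without animal 555.

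The late enzymes Nsdhl, Ebp and Dhcr7 had log2 fold changes of -2.03 (SE 1.22), -2.30 (SE 1.80) and -1.25 (SE 0.76) with overlapping groups. Fdft1, which makes squalene, Lss, which closes it into lanosterol, and the desaturase Sc5d had positive values of 0.47 (SE 0.58), 0.78 (SE 1.02) and 0.73 (SE 0.86). Tm7sf2 (chromosome 19, 6062821 to 6067850), which shares its reductase step with Lbr, had 78, 0 and 0 counts in CFD IP and 2, 3 and 20 counts in HFD IP, so that its log2 fold change of -2.35 (SE 2.49) rested on 1 CFD library.

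**Figure D3:**
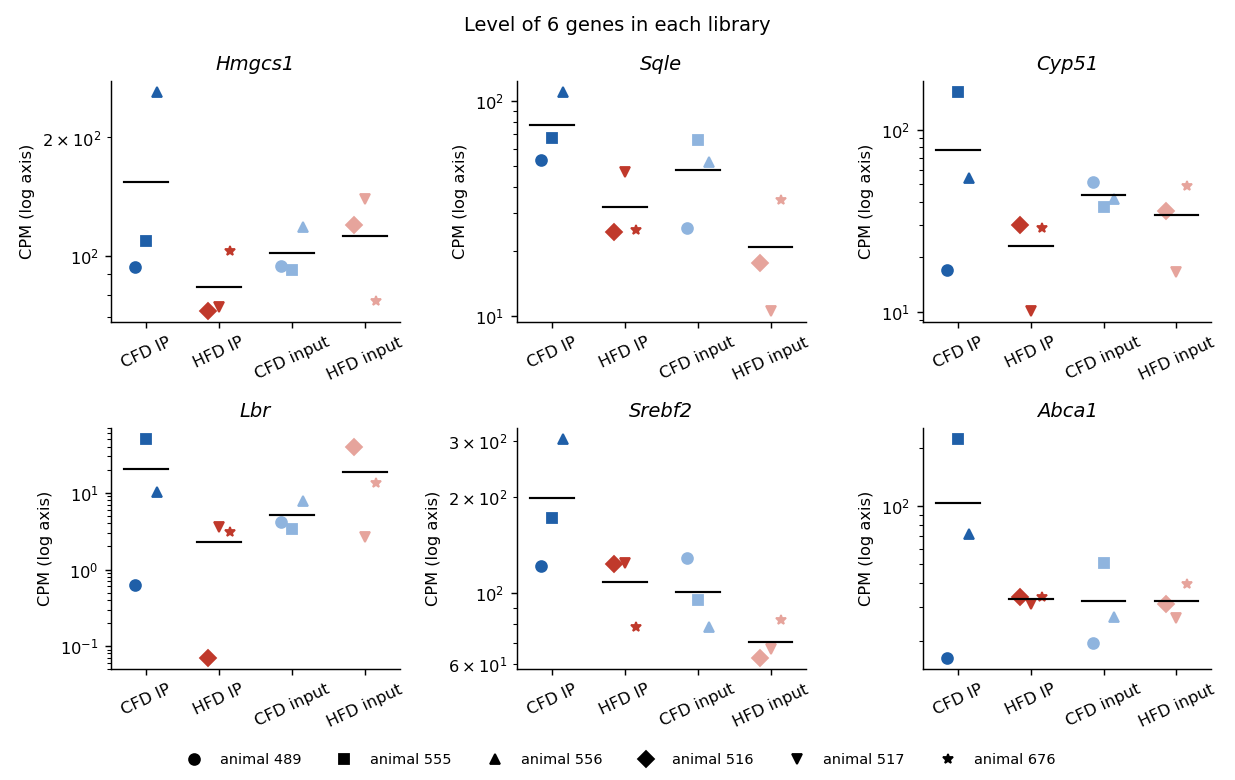
CPM of Hmgcs1, Sqle, Cyp51, Lbr, Srebf2 and Abca1 in each library on log axes, 1 marker shape per animal, with a horizontal line at the mean of the 3 libraries of a group. The high CFD IP values of Cyp51, Lbr and Abca1 are those of animal 555 and those of Hmgcs1, Sqle and Srebf2 are those of animal 556.

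Among the control genes, Srebf2 (chromosome 15, 82147269 to 82205379) was at 122, 172 and 304 CPM in CFD IP and at 123, 124 and 78.7 CPM in HFD IP. The lowest CFD library lay within the HFD range. Its log2 fold change was -0.87 ± 0.39 (SE; edgeR adjusted p = 0.415), and -0.43 without animal 556. Insig2 (chromosome 1, 121304353 to 121332662) lay the other way, at 19.2, 0.483 and 0.897 CPM in CFD IP and at 21.2, 22.6 and 21.9 CPM in HFD IP. The groups did not overlap, as for 5.94% of all genes in this direction, although animal 489 came within a few CPM of the HFD libraries. Its log2 fold change was 1.68 ± 0.96 (SE; edgeR adjusted p = 0.515), and without animal 489 it was 4.96 (edgeR adjusted p = 0.0868). It was 3.40 (adjusted p = 0.526 in limma) with the animal as a block and 1.14 (edgeR adjusted p = 0.621) without animal 555. Srebf1, the gene of the SREBP-1 forms that act mainly on fatty acid genes (chromosome 11, 60199084 to 60224186), was at 78.0, 11.9 and 76.3 CPM in CFD IP and at 11.8, 70.2 and 20.1 CPM in HFD IP, with full overlap and a log2 fold change of -0.70 (SE 0.80). Scap (chromosome 9, 110333288 to 110384949) was at 116, 15.1 and 113 CPM against 65.0, 97.0 and 72.6 CPM, with a log2 fold change of -0.06 (SE 0.56). The log2 fold change was 0.77 (SE 0.76) for Insig1 and -0.64 (SE 0.99) for Nr1h2. For Nr1h3, 5 of the 6 IP libraries held at most 8 counts and no fold change is given for this comparison.

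Abca1, the exporter that loads cholesterol onto apolipoproteins (chromosome 4, 53030789 to 53159988), was at 16.2, 223 and 71.9 CPM in CFD IP and at 33.8, 31.1 and 33.7 CPM in HFD IP. The HFD libraries lay close together inside the CFD range. Its log2 fold change was -1.66 ± 0.67 (SE; edgeR adjusted p = 0.393), and -0.43 without animal 555 and -0.99 with the animal as a block. In HFD input Abca1 was at 31.1, 26.2 and 39.5 CPM, near its HFD IP levels. Abcg1, a second exporter, had a log2 fold change of 0.76 (SE 0.53). Apoe was at 270, 271 and 413 CPM in CFD IP and at 236, 327 and 185 CPM in HFD IP, with a log2 fold change of -0.35 (SE 0.31). Lrp1, Npc1, Npc2, Stard4 and the esterifying enzyme Soat1 had log2 fold changes from -1.25 to 0.49, with overlapping groups.

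**Figure D4:**
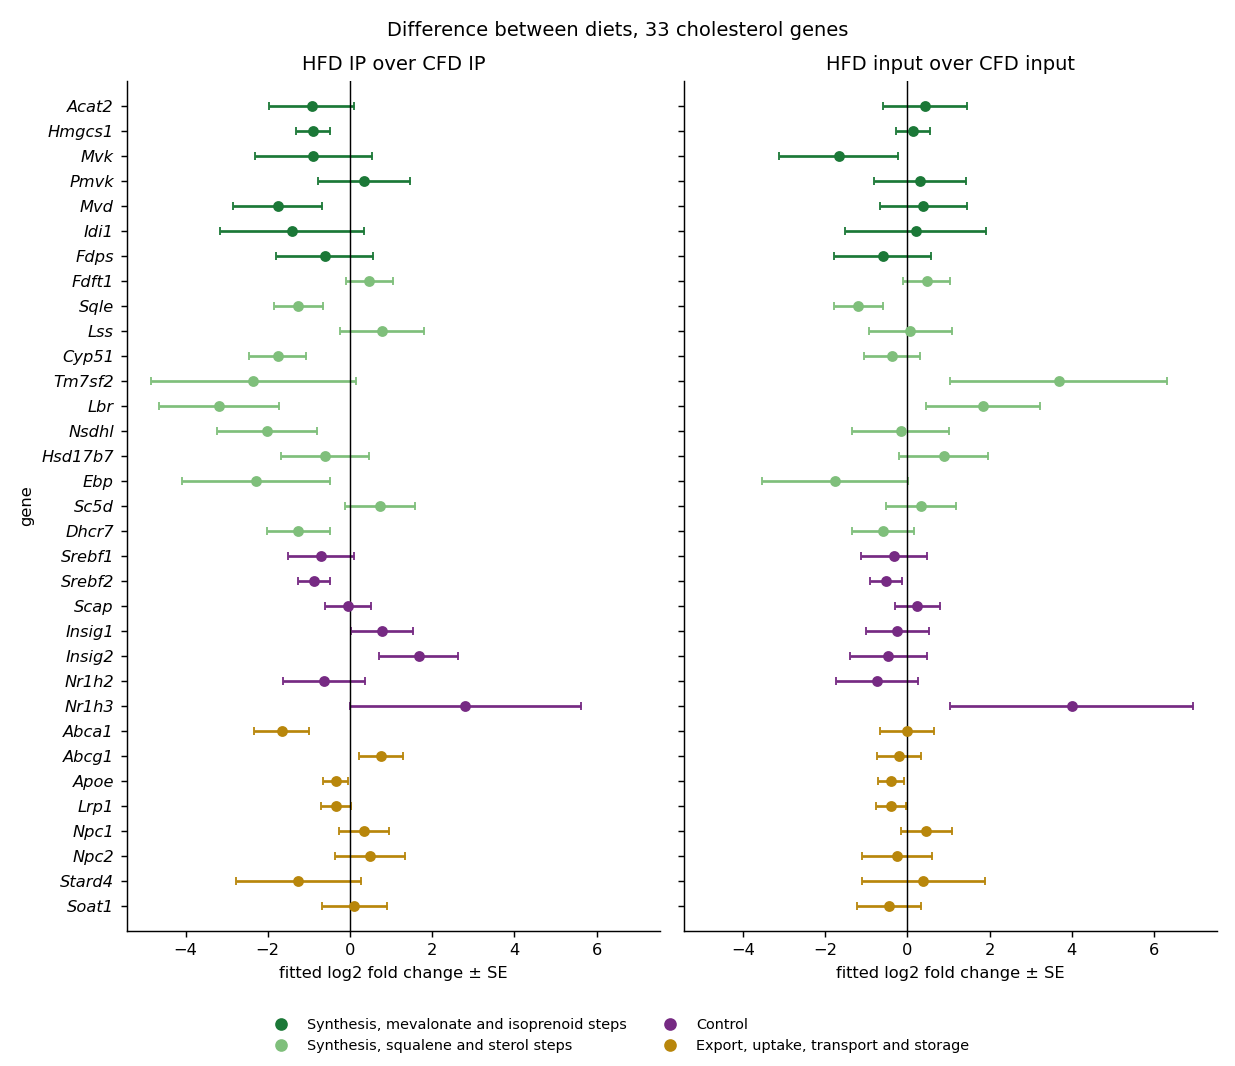
Fitted log2 fold change with its SE for each of the 33 genes, HFD IP over CFD IP on the left and HFD input over CFD input on the right, coloured by role, from 3 libraries in each group. In the IP panel 14 of 18 synthesis enzymes lie below 0, and in the input panel 7 of 18 do.

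The inputs of the diets were compared to show the whole tissue measured the same way. No member passed the adjusted threshold in edgeR, where the share of all genes was 0%, or in DESeq2, where it was 0.216%. No member had an unadjusted p under 0.05 by edgeR, against 2.03% of all genes, and 1 did by DESeq2, against 2.97%. Of the synthesis enzymes 11 of 18 were above 0, against 49.7% of all genes, and the median was 0.17 on the log2 scale. Sqle had the smallest p, at 25.6, 65.8 and 51.8 CPM in CFD input and 17.6, 10.5 and 34.5 CPM in HFD input, with a log2 fold change of -1.19 (SE 0.59). Its input groups overlapped, and the value lay near that of the IP comparison. Apoe was at 251, 197 and 278 CPM in CFD input and at 197, 173 and 182 CPM in HFD input, the only member whose input groups did not overlap, as for 4.33% of all genes in this direction, with a log2 fold change of -0.39 (SE 0.31). Tm7sf2 had 1, 13 and 8 counts in CFD input and 37, 1 and 261 counts in HFD input, and its log2 fold change of 3.68 (SE 2.64) was 0.999 without animal 676 and 1.93 with the animal as a block.

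The interaction of diet and fraction tests whether the diet difference in IP departs from that in input, and it shares all 12 libraries with the comparisons above. No member was called by edgeR, as for 0% of all genes, or by DESeq2, which called 0.843% of all genes. By edgeR 1 member had an unadjusted p under 0.05, against 5.36% of all genes. That member was Lbr, with a log2 interaction of -5.03 ± 2.01 (SE; edgeR adjusted p = 0.872), which was -2.90 without animal 555, -3.27 without animal 516 and -3.14 with the animal as a block. Its input levels were 4.16, 3.42 and 7.84 CPM on CFD and 39.4, 2.68 and 13.6 CPM on HFD, so the interaction joined a lower IP value to a higher input value. Abca1 had an interaction of -1.65 (SE 0.93), which was -0.93 without animal 555 and -1.08 with the animal as a block. Hmgcs1 had an interaction of -1.03 (SE 0.58) and Sqle of -0.07 (SE 0.83). For the synthesis enzymes 14 of 18 interactions were below 0, with a median of -0.85, against 47.8% of all genes and a median of 0.06.

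IP was then set against input, which asks what the pulldown holds beyond the whole tissue. Over both diets no member passed the adjusted threshold by edgeR, where 2.35% of all genes did, and 5 had an unadjusted p under 0.05, against 13.9% of all genes. These were the control genes Srebf1, Srebf2, Scap and Insig2 and the receptor gene Lrp1. The other control genes Insig1, Nr1h2 and Nr1h3 had log2 fold changes of -0.15 (SE 0.54), -0.09 (SE 0.70) and 1.14 (SE 1.86). That of Nr1h3 rests on few reads, with 8 of the 12 libraries at 3 counts or fewer. DESeq2 called Srebf1 and Srebf2, with adjusted p-values of 0.0451 and 0.0706, where it called 6.94% of all genes. The fit with the animal as a block called Insig2, where it called 3.14% of all genes.

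Srebf1 in input was at 25.4, 6.38 and 13.7 CPM on CFD and at 15.5, 11.2 and 9.74 CPM on HFD, below its own IP library in 5 of 6 animals. The log2 fold change of IP over input was 1.68 ± 0.58 (SE; edgeR adjusted p = 0.172), and 1.10 without animal 517. Srebf2 in input was at 130, 95.0 and 78.4 CPM on CFD and at 62.6, 66.8 and 82.5 CPM on HFD. It was higher in IP in 4 of 6 animals, with a log2 fold change of 0.80 ± 0.28 (SE; edgeR adjusted p = 0.171), which was 0.50 without animal 556. Scap in input was at 46.0, 38.0 and 32.9 CPM on CFD and at 39.8, 46.0 and 52.9 CPM on HFD. It was higher in IP in 5 of 6 animals, with animal 555 the exception, and its log2 fold change was 0.91 ± 0.40 (SE; edgeR adjusted p = 0.306).

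Insig2 had the smallest p of the 33 genes on CFD. Its input levels were 38.9, 60.1 and 38.7 CPM on CFD and 49.5, 15.4 and 34.9 CPM on HFD. The IP counts of animals 555 and 556 were 10 and 16, where their inputs had 1705 and 1060. IP was lower in 5 of 6 animals, with animal 517 the exception, and over both diets the log2 fold change was -1.67 ± 0.68 (SE; edgeR adjusted p = 0.261). With the animal as a block it was -2.57 (edgeR adjusted p = 0.0609), and without animal 489 it was -3.39 (edgeR adjusted p = 0.0336). Without any 1 of the other animals it lay between -1.86 and -1.27, with edgeR adjusted p-values from 0.350 to 0.564, and the unadjusted p was above 0.05 without animal 516, 555 or 676. On CFD alone the IP and input libraries did not overlap, as for 8.72% of all genes in this direction, and the log2 fold change was -2.74 ± 0.998 (SE; edgeR adjusted p = 0.304). With the animal as a block this was -4.68 (edgeR adjusted p = 0.0650), in a fit that called 0.968% of all genes, and DESeq2, which called 5.68% of all genes, gave an adjusted p of 0.0671. Without animal 489 it was -6.16 (edgeR adjusted p = 0.0468), and without animal 555 it was -1.95 (edgeR adjusted p = 0.545). On HFD the log2 fold change was -0.60, and the interaction of 2.14 (SE 1.34) had an edgeR adjusted p of 0.896.

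**Figure D5:**
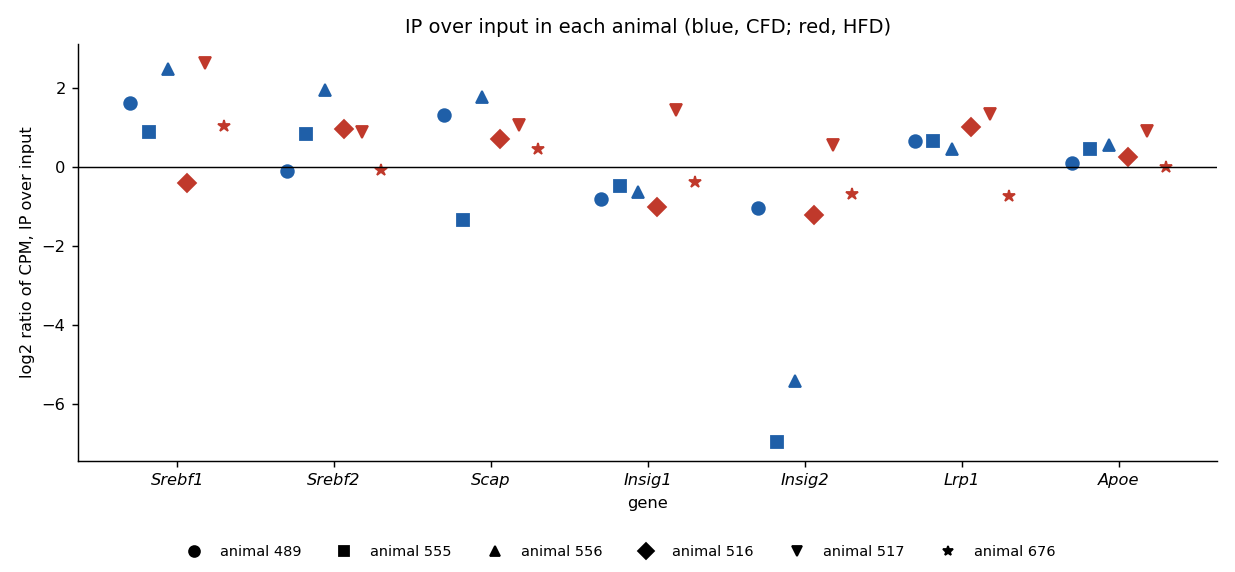
Log2 ratio of CPM in IP over input for Srebf1, Srebf2, Scap, Insig1, Insig2, Lrp1 and Apoe, 1 point per animal, blue for CFD and red for HFD, with a line at 0. Insig2 in animals 555 and 556 lies at -6.96 and -5.43, apart from all other points, and Apoe lies above 0 in all 6 animals.

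Lrp1, the large receptor that takes up Apoe particles (chromosome 10, 127538157 to 127621148), was at 657, 431 and 365 CPM in CFD IP, 537, 438 and 172 CPM in HFD IP, and in the inputs at 414, 271 and 265 CPM on CFD and 266, 172 and 284 CPM on HFD. It was higher in IP in 5 of 6 animals, with a log2 fold change of 0.64 ± 0.26 (SE; edgeR adjusted p = 0.264). Without animal 676, the exception, the log2 fold change was 0.88 (edgeR adjusted p = 0.0805), while without animal 517 it was 0.49 (edgeR adjusted p = 0.629) and without animal 516 it was 0.52 (edgeR adjusted p = 0.588). Apoe was higher in IP in 6 of 6 animals, by a log2 fold change of 0.41 ± 0.22 (SE; edgeR adjusted p = 0.418).

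Within CFD, 24 of 33 genes were above 0 in IP over input, against 49.1% of all genes, with a median of 0.60. The median was 0.29 without animal 555 and 0.41 with the animal as a block. No member was called by edgeR, where 0.188% of all genes were, and 4 had an unadjusted p under 0.05, against 11.8% of all genes. Beside Insig2 these were Srebf2, with a log2 fold change of 0.98 (SE 0.39), Abca1, with 1.68 (SE 0.67), and Srebf1, with 1.87 (SE 0.82). The value of Srebf2 was 0.38 without animal 556. Abca1 in input was at 19.4, 50.9 and 26.7 CPM on CFD, and in animal 489 its IP level was below its input. Without animal 555 the value was 0.96.

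Within HFD, 12 of 18 synthesis enzymes were below 0 in IP over input, against 50.5% of all genes. No member was called by edgeR, where 0.0139% of all genes were, or by DESeq2, where 1.11% were. By edgeR 2 members, Mvd and Lbr, had an unadjusted p under 0.05, both lower in IP, against 6.51% of all genes and 1.83% with a lower value. DESeq2 gave no adjusted p for these 2 genes here, so it could not have called them. Mvd was at 8.24, 9.13 and 17.5 CPM in CFD input. In HFD input it was at 15.8, 19.6 and 10.3 CPM, above all 3 HFD IP libraries, as for 7.98% of all genes, with a log2 fold change of -2.34 ± 1.10 (SE; edgeR adjusted p = 0.753). Lbr had a log2 fold change of -3.03 ± 1.45 (SE; edgeR adjusted p = 0.762), which was -1.28 without animal 516. The comparison within CFD and the comparison of the IP groups share the CFD IP libraries, and those within HFD and of the IP groups share the HFD IP libraries, so the values of 1 gene in them are not independent.

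A further 39 cholesterol genes outside the 33 were listed, of which 35 were tested. None was called in any of the 6 comparisons by edgeR, which called 0% to 2.35% of all genes. In HFD IP against CFD IP, 16 of 35 were above 0 and 19 below, the median being -0.06. An unadjusted p under 0.05 was found for 3 of 35, against 10.9% of all genes. The late endosome protein gene Stard3 had a log2 fold change of 5.18 ± 1.44 (SE; edgeR adjusted p = 0.270), Lcat, which esterifies cholesterol on lipoproteins, had 3.78 (SE 1.28), and the sterol transporter gene Gramd1a had -2.26 (SE 0.86). In IP over input within CFD, where 11.8% of all genes had such a p, Stard3 had -3.31 (SE 1.32) and Lcat -2.92 (SE 1.23). Within HFD, where 6.51% had it, Cyp46a1, the neuronal 24-hydroxylase, had 1.33 (SE 0.43) and the lipoprotein gene Clu had 0.98 (SE 0.33). Over both diets 4 of 35 had an unadjusted p under 0.05, all higher in IP, against 13.9% of all genes and 8.04% with a higher value. They were Abca2 at 0.71 (SE 0.26), Rxra at 1.08 (SE 0.42), Cyp46a1 at 0.76 (SE 0.30) and Clu at 0.53 (SE 0.24).

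Counts of some members are uncertain because reads could be shared with other genes, and the strand setting of the counting was not given. On the GENCODE annotation of GRCm38, exons of an overlapping gene cover 26.7% of the exon bases of Fdps (Gm43738), 18.3% of Fdft1 (Ctsb), 13.2% of Scap (5830462I19Rik), 12.1% of Hmgcs1 (Gm48342), 12.1% of Tm7sf2 (Vps51), 9.24% of Lbr (Dnah14), 3.76% of Cyp51 (Akap9) and 1.93% of Srebf1 (Rai1). Runs of 69 bases, the read length, that also occur in a transcript of another gene made up 81.4% of those in Fdps, 41.9% in Acat2, whose near copy is Acat3, 20.8% in Idi1 and 7.05% in Fdft1. Sqle, Cyp51, Lbr, Srebf2, Insig2 and Abca1 had 0 such runs.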

How the data were processed

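RNA of 12 libraries was sequenced as 69-base paired reads, which the authors aligned to mouse mm10 with STAR and, per the labels, counted with HTSeq (annotation and strand setting not given in the sources used here). The labels name a Nugen Ovation kit and the study's methods a TruSeq Ribozero kit, so how ribosomal RNA was removed is not known. The deposited counts, not normalized, give whole reads for each gene in each library. The authors also deposited FPKM, which served here only to derive gene lengths, and a scaled signal per gene, which was not used. The deposited log2 fold changes and p-values are the authors' own comparisons and were not used. No column of per-sample values was left unmapped, and every row held a gene.

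The 33 genes and all lists were chosen with earlier results of these data known. The counts were tested with edgeR 4.0.16 under R 4.3.3, after filterByExpr on the 4 groups (minimum count 10, minimum total 15), TMM scaling, and glmQLFit and glmQLFTest on all 12 libraries with 4 group means. There were 6 contrasts, p-values were adjusted by Benjamini-Hochberg over 14354 genes, with 0.1 as the limit for a call, the study's own. CPM are relative to the scaled library size, and SE was computed from the fold change and the F statistic (absolute value over root F). The common biological coefficient of variation was 101%. All p-values are two-sided. Those of the main fit measure the spread between libraries of a group, 3 animals in each, estimated over all 12 libraries. The main fit took the IP and input of a mouse as independent, so its IP against input and interaction p-values ignored the pairing. Only the replicate block took the pairing in. Intervals of counting error were not needed, and a count of 0 allows up to 3 counts.

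Values in every library are given for members with an unadjusted p under 0.05 in any contrast and for the 2 with the smallest p in each contrast, other members are given by range or fold change, and Apoe, Nsdhl, Ebp, Dhcr7 and the genes near 0 counts were added after their values were seen. Genes of the further list are named at an unadjusted p under 0.05 in a described contrast, and some of its genes are not reported here by name. Alternatives were RLE scaling, no filter, DESeq2 1.42.0, leaving out Rn45s and Lars2, fitting only the 6 libraries compared, leaving out each animal, and a replicate block.

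Each mouse gave an IP and an input library, so the animal number was taken as the pair. Deviations from the group means correlated at 0.0064 to 0.19 between the 2 libraries of an animal. The block was a fixed term within animals and, between diets, a random one in limma 3.58.1 (correlation 0.0641). No 2 libraries of a group agreed within sampling noise (lowest chi-square over its degrees of freedom, 119). On counts simulated for HFD IP against CFD IP over 14354 genes, edgeR called 0 of 49 genes changed 2-fold, 15 of 48 changed 8-fold and 35 of 49 changed 32-fold, with 5 calls among 13759 unchanged genes. Promoters and coordinates are from RefSeq on GRCm38.p6, and exon overlaps and shared runs from GENCODE on GRCm38.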

Additional observations from a re-analysis of the deposited data

How the results depend on the processing

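Across the alternatives 0 of the 21 log2 fold changes of single genes followed and 2 of 7 medians changed sign. The 21 were picked by their p in the main fit and the alternatives reuse its libraries, so kept signs are not independent support. The median of HFD input against CFD input, -0.16, was 0.083 without animal 489 and 0.063 with the replicate block, and that of HFD IP against input, 0.075, was -0.062 without animal 517. In HFD IP against CFD IP, members at an unadjusted p under 0.05 numbered 2 with only the 6 libraries compared and 2 with the replicate block, and 2 to 7 when each animal was left out in turn. Of all genes, 5.20%, 8.82% and 8.42% to 11.5% had such a p in these fits. Without 1 animal, 0 to 1 members were called there, against 0.00667% to 0.134% of all genes. The median member log2 fold change then ran from -0.68 to -0.31. The count of synthesis enzymes below 0, added after the data were seen, ran from 12 to 15 of 18, or 13 of the 17 tested with only the 6 libraries compared, and their median from -1.30 to -0.90. On CFD, IP against input gave 1 member called with no filter, 1 with DESeq2 and 1 with the replicate block, each time Insig2, and 0 to 1 without 1 animal. These fits called 1.70%, 5.68%, 0.968% and 0.0133% to 0.348% of all genes. On HFD, the replicate block left 0 members at an unadjusted p under 0.05, against 1 to 2 without 1 animal, where the median ran up to 0.31 (without animal 676). Of all genes, 5.78% had such a p with the block and 1.86% to 9.41% without 1 animal. Over both diets, 2 members were called with no filter (Srebf1 and Insig2), 2 with DESeq2 (Srebf1 and Srebf2) and 1 with the block (Insig2). These fits called 3.99%, 6.94% and 3.14% of all genes. Without 1 animal, 0 to 1 members were called over both diets, against 0.0469% to 2.98% of all genes. An unadjusted p under 0.05 was then found for 2 to 6 members, against 9.64% to 15.02% of all genes. The block moved the median member over both diets to 0.023 and the median of all genes to -0.25. In the inputs, 1 member had an unadjusted p under 0.05 by DESeq2 and 1 with only the 6 libraries compared, and 0 to 1 without 1 animal. The shares of all genes were 2.97%, 4.27% and 1.17% to 2.62%. The interaction gave 2 with no filter and 0 to 4 without 1 animal, against 6.22% and 3.82% to 7.02% of all genes. Of all genes, HFD IP against CFD IP called 8 in edgeR, 219 with no filter and 770 with DESeq2. On CFD these were 27, 312 and 816, and over both diets 337, 730 and 996. The cause of these differences was not tested. In the counts simulated for HFD IP against CFD IP, edgeR called 0 of 49 genes changed 2-fold, and the other comparisons were not simulated. The replicate block changed no other call.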

Other observations

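Several members were near 0 in 1 fraction of an animal and well counted in the other. Of 198 pairs of a member and an animal, 7 had at most 10 counts in IP and at least 100 in input, or 3.54%, against 4.68% over all tested genes. The reverse held for 2 pairs, or 1.01%, against 1.27% of all tested genes. In the HFD animal 516 the 3 synthesis genes Lbr, Pmvk and Idi1 had 2, 9 and 5 counts in IP beside 1416, 1019 and 166 in input. Nsdhl, a late enzyme of the sterol branch, had 2 counts in the CFD IP of animal 556 beside 180 in its input, and 811 and 1152 counts in the other CFD IP libraries. Ebp, the sterol isomerase, had 4 counts in the CFD IP of animal 489 and 752 in that of animal 555, whose input had 6. Nr1h2 had 11 counts in the CFD IP of animal 555, where the other CFD IP libraries had 1065 and 365. The cause of these gaps was not tested.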
